A study of Danio rerio with 16 samples.

Results

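Zebrafish embryos given the low dose of the retinoic acid receptor antagonist AGN193109 (1 µM) were set against embryos given only its solvent, dimethyl sulfoxide (DMSO). The comparison holds 8 of the 16 arrays of the series: the 4 samples titled as treated at 1 µM and the 4 titled as treated with DMSO. All embryos were wild type, from incrosses of AB/WIK hybrid parents, and were freed of their chorions before exposure. The 1 µM embryos were exposed from 5.25 hours post fertilization (hpf), during gastrulation, and collected as whole embryos at 11 hpf, after 5.75 hours. The DMSO embryos were held in 2% DMSO over the same hours. A second antagonist group (10 µM, the same hours, 4 arrays) and a group given all-trans retinoic acid (0.33 µM from 6.5 hpf, 4 arrays) shared these DMSO controls. Drugs were diluted from stocks in DMSO. The DMSO percentage of the drug-treated embryos is not stated in the sample records used here. A difference in solvent could not be told apart from the drug. Sample titles spell the compound AGN193019 where the series design has AGN193109, and the treatment protocol writes the doses in mM where titles and design have µM. The design's spelling and the µM doses were used. A description field that places the embryos before or during cellularisation does not describe 11 hpf embryos and was not used.

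Retinoic acid is made from vitamin A by way of retinaldehyde and binds nuclear retinoic acid receptors, which sit on DNA together with retinoid X receptors. In the late gastrula it is made in the trunk mesoderm and removed by Cyp26 enzymes further forward and in the tailbud, and it sets the anterior limits of hox genes in the hindbrain and spinal cord. AGN193109 binds the retinoic acid receptors and keeps them from being activated. The comparison therefore asks which genes of the embryo differ in RNA level at a low dose of this antagonist.

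Each array gave 1 intensity for each of 15617 probe sets, and log2 of it is used here, so that a difference of 1 is a 2-fold difference. Array medians of the intensities lay between 72.8 and 78.3 over the series. Of 24 early embryonic markers with a probe set, 23 exceeded log2 4, the level taken as background, on all 8 arrays, and of 3 late markers (muscle fibre and pancreas genes) with a probe set 0 did. The exception was gata1a, a red blood cell gene. The 1 µM arrays were the most scattered group, with a median within-group SD of 0.254 over probe sets, against 0.196 in DMSO. Mean correlation with arrays of the same group was similar for all replicates at 1 µM (0.9755 to 0.9777). Replicates 1 and 4 of 1 µM (mean correlation with arrays of other groups 0.967 and 0.966) and replicate 3 of DMSO (0.968) stood further from the other groups than the remaining arrays of these 2 groups (0.978 to 0.979). Calls that changed without 1 µM replicates 1 and 4 together are therefore given with each gene. Leaving out DMSO replicate 3 as well changed 1 further call among the named genes, that of znf503.

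Few genes changed at 1 µM. In limma's test with Benjamini-Hochberg adjustment, 17 of 11843 tested probe sets (0.144%) passed an adjusted p of 0.05, 3 of them higher (0.0253%) and 14 lower (0.118%) in 1 µM embryos. They included 13 of 7118 named genes (0.183%): dhrs3a, hoxb1a, hoxa4a, hoxa3a, rxrga, meis3, wnt11, neurog1, tshz1 and znf503 were lower (10 genes, 0.14%), and tbx15, tbx1 and zic6 were higher (3 genes, 0.0421%). At an unadjusted p of 0.05, 744 probe sets (6.28%) and 484 named genes (6.8%) passed. The arrays of the groups did not overlap for 160 of the named genes (2.25%). Non-overlap was thus more common than a call, and by itself it does not support a difference in a single gene. Over all named genes the median log2 fold change was -0.02. The count of called probe sets was 9 without DMSO replicate 1 and 11 without DMSO replicate 2. It was 7 when the fit held only these 8 arrays. That fit estimates the spread without the 10 µM and retinoic acid arrays, whose median within-group SD was 0.175 and 0.226. Why the count fell was not tested. The 3 higher probe sets were 0 without DMSO replicate 1, 1 without 1 µM replicate 1, DMSO replicate 3 or DMSO replicate 4, and 6 without 1 µM replicate 3. Without 1 µM replicates 1 and 4 together, 15 probe sets were called, of which 0 were higher. In whole embryos, fewer cells of a type and less RNA per cell cannot be told apart.

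**Figure D1:**
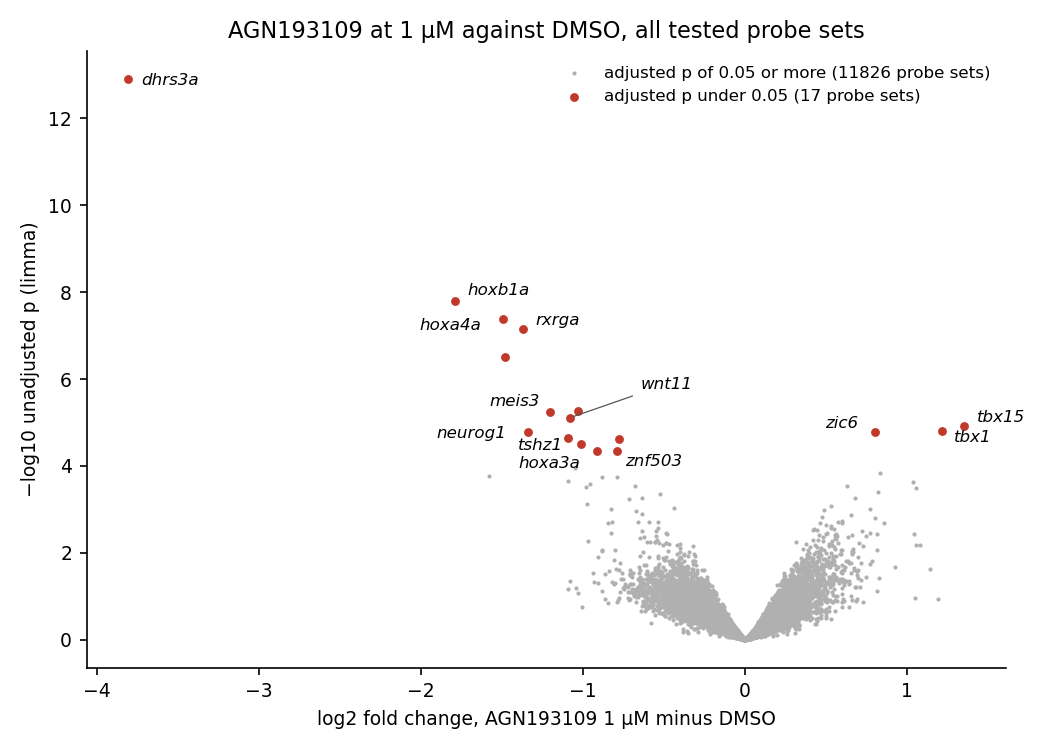
Each point is 1 of the 11843 tested probe sets, with the log2 fold change of 1 µM over DMSO on the x axis and −log10 of the unadjusted limma p on the y axis. Red points are the 17 called probe sets, with the 13 named genes labelled; dhrs3a lies far from all others, and 14 of the 17 lie to the left of 0.

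Of the 17 called probe sets, that of dhrs3a, a gene of retinoid metabolism, differed most. The enzyme encoded by dhrs3a reduces retinaldehyde back to retinol and so takes precursor away from retinoic acid synthesis. Log2 intensities of dhrs3a were 3.30, 3.10, 3.31 and 2.46 in 1 µM embryos, against 6.70, 6.75, 6.90 and 7.04 in DMSO embryos. All 4 treated arrays lay under log2 4, whereas every DMSO array lay far above it. The gene averaged 3.04 ± 0.40 in 1 µM and 6.85 ± 0.15 in DMSO (SD, n = 4 each). It was therefore at least 7.20-fold lower, measured against log2 4 as the lowest level that counts as signal (limma adjusted p = 1.46e-09). At 10 µM dhrs3a lay under log2 4 as well (3.26 to 3.59), so no fold between the doses can be given for it.

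The other 13 genes of retinoic acid synthesis, breakdown and binding that were tested did not pass. The median of the 14 genes was -0.05, and 1 of 14 was called, against 0.183% of all named genes. All gene lists were written with earlier results of these data known, so their counts are not independent evidence. The degrading cyp26 family had values on both sides of 0. The main Cyp26 enzyme of the gastrula is encoded by cyp26a1, whose log2 intensities were 10.59, 9.94, 10.59 and 9.13 in 1 µM embryos, against 10.36, 10.72, 10.30 and 10.61 in DMSO embryos. These values overlap, with 1 µM replicate 4 lowest, and the difference of -0.44 ± 0.27 (SE) had an adjusted p of 0.749 in limma. Its relative cyp26b1, which is known from the hindbrain, gave 9.27, 9.37, 8.80 and 9.10 in 1 µM embryos, against 8.30, 8.67, 8.23 and 8.25 in DMSO embryos. Every 1 µM array exceeded every DMSO array, yet the difference of 0.77 ± 0.23 did not pass (limma adjusted p = 0.589). The 4 probe sets of cyp26b1 lay between 0.60 and 0.83, the lowest adjusted p among them being 0.0888. The third enzyme, cyp26c1, overlapped between the groups, at a difference of 0.36 that ranged from 0.08 to 0.65 with any 1 array left out and was -0.11 without 1 µM replicates 1 and 4 together, so that it has no settled direction. For aldh1a2, whose product makes retinoic acid in the trunk mesoderm, log2 intensities were 10.33, 9.02, 10.01 and 9.37 in 1 µM embryos, against 9.58, 8.65, 9.63 and 9.00 in DMSO embryos. Both groups have replicates 1 and 3 high, and the difference of 0.47 ± 0.29 had an adjusted p of 0.747. The list member dhrs9 (-0.45) and the carrier genes crabp2a (-0.33) and crabp2b (-0.06), whose proteins bind retinoic acid in the cell, did not pass.

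Among 9 retinoid receptor and cofactor genes, 1 fell (11.1%, against 0.183% of all named genes), and the median was -0.06. The called gene was rxrga, which encodes a retinoid X receptor. Its log2 intensities were 4.72, 4.58, 4.22 and 4.97 in 1 µM embryos, against 5.91, 6.15, 5.85 and 6.06 in DMSO embryos. The lowest DMSO array lay well above the highest 1 µM array, and the log2 fold change was -1.37 ± 0.15 (limma adjusted p = 0.00021). The corepressor gene nrip1b, whose product binds liganded nuclear receptors, gave 7.50, 6.46, 6.79 and 6.68 in 1 µM embryos, against 7.94, 7.79, 8.24 and 7.65 in DMSO embryos. The groups do not overlap, with 1 µM replicate 1 nearest to the DMSO arrays. Its difference of -1.05 ± 0.21 missed the threshold at an adjusted p of 0.0716. It passed without 1 µM replicate 1, at -1.26 and an adjusted p of 0.00686, and without 1 µM replicates 1 and 4 together, at -1.28 and 0.0193. With array weights it passed at -1.09 and 0.0126. Leaving out the treated array nearest to DMSO enlarges the difference by construction, so those passes do not support a call. Of the 8 fits without a single array 1 passed (adjusted p up to 0.291). Of 9 other alternatives 4 passed (up to 0.51). The receptors that the drug itself binds were measured through raraa (-0.26), rarab (-0.06) and rarga (0.39), and 0 of the 3 passed in limma, either after adjustment (0.745 for raraa and rarga) or at an unadjusted p of 0.05.

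The hox genes encode homeodomain factors that give segments along the body axis their identity, and their paralogue groups are numbered from the head end. Of 16 tested genes in groups 1 to 5, 3 fell (18.8%, against 0.183% of all named genes), and the median was -0.41. Values lay below 0 in 14 of the 16, beside 3840 of all 7118 named genes. At an unadjusted p of 0.05, 10 of the 16 passed, 9 of them lower, against 6.8% of all named genes. Their mean log2 intensity was 5.04, 5.15, 4.95 and 5.37 on the 1 µM arrays, against 5.61, 5.88, 5.44 and 5.61 on the DMSO arrays. The rhombomere 4 gene hoxb1a gave 6.52, 6.87, 6.55 and 7.40 in 1 µM embryos, against 8.57, 8.82, 8.46 and 8.66 in DMSO embryos. No array overlapped, and hoxb1a fell by 1.79 on the log2 scale (SE 0.18, 3.46-fold lower, limma adjusted p = 9.42e-05). For hoxa4a, a gene of the caudal hindbrain and anterior spinal cord, the values were 4.41, 4.43, 4.83 and 4.82 in 1 µM embryos, against 5.94, 6.49, 5.97 and 6.07 in DMSO embryos. It fell by 1.49 (SE 0.16, limma adjusted p = 0.000168), and its 1 µM arrays came close to the background level. The neighbouring gene hoxa3a gave 5.11, 4.55, 4.68 and 5.11 in 1 µM embryos, against 5.76, 6.14, 5.56 and 5.64 in DMSO embryos. It fell by 0.91 (SE 0.17, limma adjusted p = 0.0322), and its second probe set fell by 1.09 (adjusted p = 0.0204). This call was lost without 1 µM replicate 2 or 3 or DMSO replicate 1, 2 or 4 (adjusted p of 0.0785 to 0.148) and with only the 8 arrays in the fit (0.368).

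Other hox genes of groups 1 to 5 stayed short of the threshold. Log2 intensities of hoxd4a, also a caudal hindbrain gene, were 6.11, 5.75, 5.25 and 6.46 in 1 µM embryos, against 6.97, 7.51, 6.63 and 6.82 in DMSO embryos. The groups do not overlap by a small margin, with 1 µM replicate 4 nearest. The difference was -1.09 ± 0.23 (limma adjusted p = 0.113), and without 1 µM replicate 4 it was -1.28 with an adjusted p of 0.0353. It also passed without 1 µM replicates 1 and 4 together (-1.48, adjusted p = 0.0164) and with array weights (-1.15, adjusted p = 0.0435). Replicates 1 and 4 were the treated arrays nearest to DMSO, so leaving them out enlarges the difference by construction. Of the 8 fits without a single array 1 passed (adjusted p up to 0.298). Of 9 other alternatives 3 passed (up to 0.85). A second hoxd4a probe set gave -1.58 (adjusted p = 0.0974). Values for hoxb4a (-0.66), hoxb5b (-0.83), hoxb2a (-0.55) and hoxb5a (-0.42) were below 0 without passing. The 2 genes above 0 were hoxc5a (0.05) and hoxa2b, which is expressed up to rhombomere 2, further forward than the others. For hoxa2b the log2 intensities were 5.73, 5.69, 5.81 and 5.66 in 1 µM embryos, against 5.35, 5.04, 5.45 and 5.11 in DMSO embryos. All 4 treated arrays lay above the DMSO arrays, at a difference of 0.48 ± 0.16 (limma adjusted p = 0.745).

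Towards the tail end, 0 of 8 tested genes of groups 6 to 8 and 0 of 11 of groups 9 to 13 were called by limma. At an unadjusted p of 0.05, 3 and 2 of them passed, against 6.8% of all named genes. The medians were 0.15 and 0.29, beside -0.02 over all named genes. Of the 11 genes of groups 9 to 13, 10 were above 0, beside 3278 of all 7118 named genes. These genes were read on the same arrays, so they are not independent of each other. Their mean log2 intensity overlapped between the groups. It was 6.545, 7.090, 6.617 and 6.871 on the 1 µM arrays, against 6.328, 6.757, 6.232 and 6.511 on the DMSO arrays. The highest value belonged to hoxd11a, with log2 intensities of 5.26, 5.63, 5.06 and 5.34 in 1 µM embryos, against 3.98, 4.83, 4.59 and 4.91 in DMSO embryos. These groups do not overlap, and the difference of 0.75 ± 0.22 had an adjusted p of 0.596 in limma. In groups 6 to 8, hoxb6b (-0.54) and hoxb8b (-0.40) were below 0 and hoxc8a (0.37) above it, all with overlapping arrays. Values for hoxb1b and the hindbrain gene mafba were not analysed here, and hoxa1a did not exceed log2 4 on enough arrays to be tested.

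**Figure D2:**
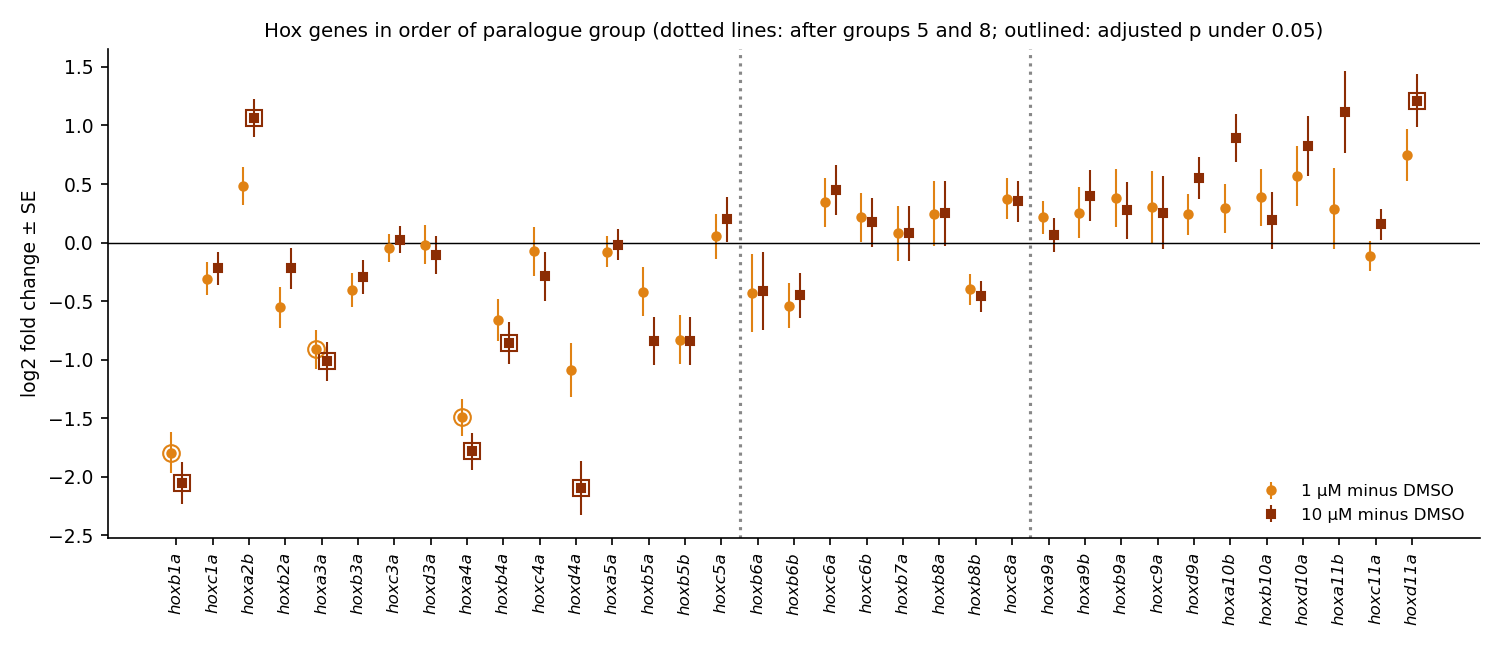
Log2 fold change against DMSO (y axis, mean ± SE of the fit, n = 4 arrays a group) of the 35 tested hox genes, ordered along the x axis by paralogue group, for 1 µM (orange circles) and 10 µM (brown squares), with an outline where the adjusted p was under 0.05. At 1 µM the outlined genes are hoxb1a, hoxa3a and hoxa4a; both series use the same DMSO arrays.

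Hox proteins bind DNA with partners of the Meis and Pbx families. Of 12 such genes, 1 fell (8.33%, against 0.183% of all named genes), and the median was -0.08. The called gene was meis3, whose log2 intensities were 10.10, 9.65, 9.75 and 10.31 in 1 µM embryos, against 11.01, 11.20, 11.25 and 11.18 in DMSO embryos. The groups were well apart, and meis3 fell by 1.20 (SE 0.18, 2.30-fold lower, limma adjusted p = 0.00979). Its family member meis2a gave 6.12, 5.28, 5.37 and 5.51 in 1 µM embryos, against 6.34, 6.80, 6.75 and 6.32 in DMSO embryos. The groups do not overlap, with 1 µM replicate 1 near the DMSO range, and the difference was -0.98 ± 0.22 (limma adjusted p = 0.127). Without 1 µM replicate 1 it was -1.17 with an adjusted p of 0.0421. Leaving out the treated array nearest to DMSO enlarges the difference by construction. Of the 8 fits without a single array only this 1 passed (adjusted p up to 0.456), and 0 of 9 other alternatives did. The remaining meis genes (meis1a, -0.41; meis2b, -0.38; meis1b, -0.22) were below 0 without passing, and the pbx genes lay between -0.05 and 0.12.

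In a list of 23 hindbrain genes other than hox genes, 0 were called by limma. This list does not hold the called genes meis3 and znf503, which stand in the lists of Hox partners and of Fgf and Wnt signalling. At an unadjusted p of 0.05, 7 of the 23 passed, against 6.8% of all named genes. The arrays of 6 genes did not overlap (3 higher and 3 lower), against 2.25% of all named genes. The median was 0.16. The largest difference was in nr2f1a, which encodes an orphan nuclear receptor of the COUP-TF family. Its log2 intensities were 6.80, 6.34, 5.67 and 7.05 in 1 µM embryos, against 7.37, 7.59, 7.48 and 7.32 in DMSO embryos. The 1 µM arrays spread widely, with replicates 1 and 4 nearest to DMSO. The difference was -0.98 ± 0.24 (limma adjusted p = 0.252), and without 1 µM replicates 1 and 4 together it was -1.44 with an adjusted p of 0.0164. Leaving out the arrays nearest to DMSO enlarges the difference by construction, so this pass does not support a call. Of the 8 fits without a single array 0 passed (adjusted p up to 0.586). Of 9 other alternatives 2 passed, both without replicates 1 and 4 (the others up to 0.855). A relative, nr2f6b, gave -0.53, and another, nr2f5, gave -0.01. The rhombomere 3 and 5 gene egr2b had log2 intensities of 8.79, 8.75, 8.61 and 8.84 in 1 µM embryos, against 8.30, 8.32, 8.46 and 8.13 in DMSO embryos. Its treated arrays were the higher ones throughout, at a difference of 0.44 ± 0.18 that did not pass (limma adjusted p = 0.745). The hindbrain boundary gene gbx2 (0.51) and the caudal gene cdx4 (0.10) did not pass.

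Of 30 tested genes of neural progenitors and neurogenesis, 1 was called (3.33%, against 0.183% of all named genes), and the median was 0.12. Values lay above 0 in 18 of the 30 and below it in 12, beside 3278 of all 7118 named genes above 0. At an unadjusted limma p of 0.05, 7 of the 30 passed, 5 of them higher and 2 lower, against 6.8% of all named genes. The called gene was neurog1, a proneural gene that starts the formation of the first neurons and of sensory ganglia. Log2 intensities were 6.32, 7.39, 7.15 and 6.79 in 1 µM embryos, against 8.02, 8.93, 8.13 and 7.94 in DMSO embryos. All treated arrays were lower, although both groups spread widely, and neurog1 fell by 1.34 (SE 0.22, limma adjusted p = 0.0167). This call was lost without 1 µM replicate 4 (adjusted p = 0.0519), without 1 µM replicates 1 and 4 together (0.279) and with only the 8 arrays in the fit (0.424). Replicates 1 and 4 were the lowest treated arrays of neurog1, so leaving them out shrinks its difference by construction (to -0.98). The neuronal gene neurod4 gave 4.55, 4.74, 4.48 and 4.53 in 1 µM embryos, against 5.07, 5.81, 5.48 and 5.12 in DMSO embryos. Its groups do not overlap, at a difference of -0.79 ± 0.16 (limma adjusted p = 0.0974). The bHLH gene olig3 overlapped between the groups, at a difference of 1.06 ± 0.34 (limma adjusted p = 0.696). A second olig3 probe set gave 0.82 ± 0.19 and did not pass either (limma adjusted p = 0.154).

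Another 3 lower genes lie in the list of Fgf and Wnt signalling, where 3 of 43 genes fell (6.98%, against 0.183% of all named genes called) and the median was 0.07. This list holds tshz1 and znf503, zinc-finger genes placed there with earlier results of these arrays known. Its count, like those of the other lists, is not independent evidence. The secreted Wnt ligand gene wnt11 gave 6.77, 6.63, 6.54 and 6.63 in 1 µM embryos, against 7.64, 8.05, 7.88 and 7.31 in DMSO embryos. Its treated arrays lay close together and under all DMSO arrays. It fell by 1.08 (SE 0.17, limma adjusted p = 0.0115), but did not pass without 1 µM replicates 1 and 4 together (0.0648) or with only the 8 arrays in the fit (0.0881). The teashirt-family gene tshz1 gave 7.43, 7.44, 6.86 and 7.79 in 1 µM embryos, against 8.39, 8.67, 8.37 and 8.16 in DMSO embryos. No array overlapped, and tshz1 fell by 1.01 (SE 0.18, limma adjusted p = 0.0245). That call was lost without any 1 of 1 µM replicates 1 to 3 and DMSO replicates 1 to 3 (0.0561 to 0.116), and with only the 8 arrays in the fit (0.362). For znf503, known in zebrafish hindbrain patterning, the values were 8.43, 7.95, 8.14 and 8.34 in 1 µM embryos, against 9.05, 9.11, 8.91 and 8.97 in DMSO embryos. The groups were apart, and znf503 fell by 0.79 (SE 0.14, limma adjusted p = 0.0322). Of the 8 fits without a single array it passed only in that without 1 µM replicate 1, and was lost without 1 µM replicate 2, 3 or 4 or any 1 DMSO replicate (0.0519 to 0.148). It was also lost with only the 8 arrays in the fit (0.174) and without 1 µM replicates 1 and 4 and DMSO replicate 3 together (0.0582). The related gene znf703 (-0.44) and the Fgf receptor gene fgfr3 (-0.63) had lower values on all 4 treated arrays but did not pass. Of the 43 genes, 22 lay above 0 and 21 below it. Known targets and feedback genes of Wnt and Fgf signalling lay on both sides of 0. Above it were axin2 (0.29), lef1 (0.25), spry2 (0.20), spry4 (0.15), etv5b (0.12) and dusp6 (0.09), among others. Below it were etv4 (-0.27), dkk1b (-0.14), dusp4 (-0.06) and etv5a (-0.03). The highest value of the list was that of dusp2 (0.60). None of these genes passed after adjustment, whereas dusp2, axin2 and lef1 passed an unadjusted limma p of 0.05.

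The 3 genes that rose encode transcription factors of the mesoderm and of the dorsal neural plate. The T-box gene tbx1 is needed for the pharyngeal arches and the heart outflow tract. Its log2 intensities were 7.22, 7.02, 7.24 and 7.50 in 1 µM embryos, against 6.16, 6.59, 5.43 and 5.95 in DMSO embryos. It rose by 1.21 ± 0.20 (SE), or 2.32-fold (limma adjusted p = 0.0167), with the DMSO arrays spread more widely than the treated ones. This call was lost without 1 µM replicate 4 (adjusted p = 0.0528), DMSO replicate 1 (0.0521) or DMSO replicate 4 (0.0722). A second T-box gene, tbx15, is known from the skeleton and skin of the mouse, and gave 6.19, 5.76, 5.84 and 6.08 in 1 µM embryos, against 4.65, 4.77, 4.29 and 4.75 in DMSO embryos. It rose by 1.35 ± 0.22 (limma adjusted p = 0.0157), and no array overlapped. It was lost without 1 µM replicate 1 (0.0545), DMSO replicate 1 (0.0524) or DMSO replicate 3 (0.0596). The zinc-finger gene zic6, a member of the Zic family of the dorsal neural plate, gave 5.73, 5.75, 5.20 and 5.22 in 1 µM embryos, against 4.67, 4.71, 4.63 and 4.69 in DMSO embryos. The DMSO arrays were nearly level and the treated arrays fell into a higher and a lower pair, all above DMSO. The gene rose by 0.80 ± 0.13 (limma adjusted p = 0.0167), and was lost without 1 µM replicate 1 or 2 or any 1 DMSO replicate (0.0561 to 0.0800). Without 1 µM replicates 1 and 4 together, the adjusted p was 0.279 for tbx1 and for tbx15 and 0.0634 for zic6. The differences in that fit, which holds fewer arrays, were 1.10 for tbx1, 1.19 for tbx15 and 0.80 for zic6. Replicates 1 and 4 were the highest treated arrays of tbx15, so leaving them out lowers its difference by construction. With only the 8 arrays in the fit the adjusted p was 0.311 for tbx1 and 0.362 for zic6.

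The lists around these 3 genes held no further call beyond those named. Among 16 heart and pharynx genes 1 was called (6.25%, against 0.183% of all named genes) and the median was 0.12, with hey2, a Notch target of the artery and heart, as the next highest. It gave 6.33, 5.98, 6.42 and 6.06 in 1 µM embryos, against 5.50, 5.18, 5.82 and 5.20 in DMSO embryos. The groups do not overlap, at a difference of 0.77 ± 0.19 (limma adjusted p = 0.298). Among 29 neural crest and placode genes, 1 was called (3.45%), and the median was 0.14. Values lay above 0 in 24 of the 29, beside 3278 of all 7118 named genes. The highest value there was not that of the called zic6 but of zic5 (0.86 ± 0.23, limma adjusted p = 0.45), and the third was that of tfap2b (0.57 ± 0.16, limma adjusted p = 0.45). In both zic5 and tfap2b all treated arrays lay above DMSO. Among 22 presomitic and somite genes, 2 were called (9.09%), tbx15 higher and wnt11 lower, and the median was 0.16. In the blood and vessel list 8 of 9 genes were above 0, beside 3278 of all 7118 named genes, and 0 were called by limma. Of the 8, kdrl (4e-04), klf17 (0.003) and hbae3 (0.03) lay close to 0. An unadjusted p of 0.05 was passed by 2 of the 9, against 6.8% of all named genes. The highest was tal1, an early blood regulator, at 0.60. Mean log2 intensity of the blood and vessel list overlapped between the groups. It was 7.130, 6.844, 6.924 and 6.805 on the 1 µM arrays, against 6.819, 6.693, 6.674 and 6.714 on the DMSO arrays.

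**Figure D3:**
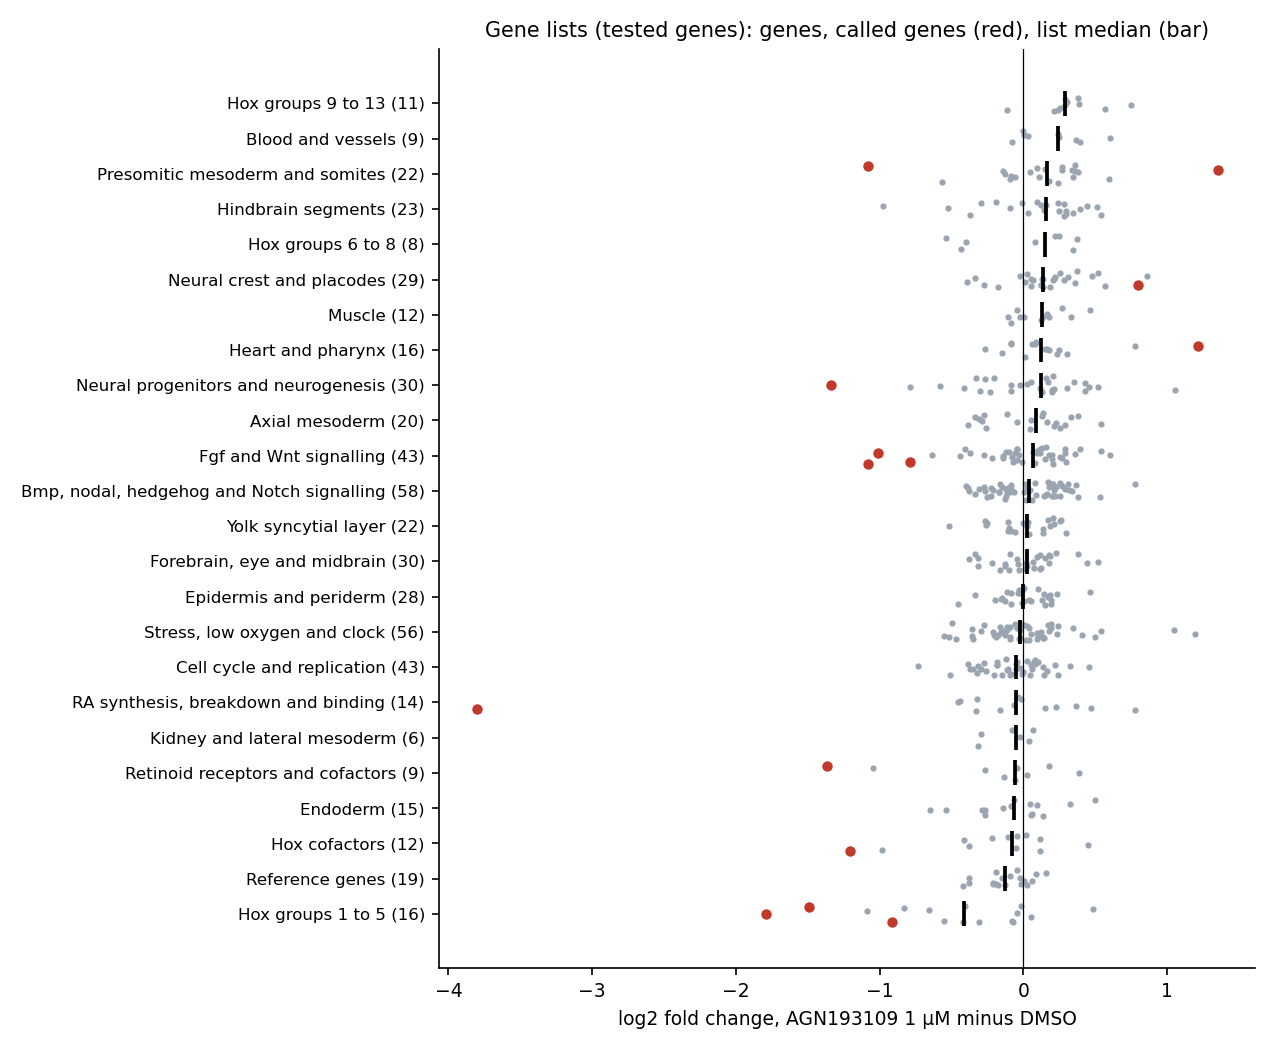
Log2 fold changes of 1 µM over DMSO (x axis) for the tested genes of 24 lists (y axis, with the number of genes in brackets), each point being a gene, red where called, and each bar the median of the list. The list of hox groups 1 to 5 has the lowest median (-0.41) and that of groups 9 to 13 the highest (0.29); a gene may stand in several lists.

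Other cell types and general programmes showed no called gene in these lists at 1 µM. In limma, 0 genes passed among 30 forebrain, eye and midbrain genes (median 0.02), 20 axial mesoderm genes (0.09), 12 muscle genes (0.13), 15 endoderm genes (-0.07) and 28 epidermal genes (-0.002). The same held for 22 genes of the yolk syncytial layer (0.03), 58 genes of Bmp, nodal, hedgehog and Notch signalling (0.04), 56 genes of stress, low oxygen and clock (-0.02), 43 cell cycle genes (-0.05), 6 kidney and lateral mesoderm genes (-0.05) and 19 reference genes (-0.13). At an unadjusted p of 0.05, each of these lists had between 0 and 3 genes, against 6.8% of all named genes. The anterior brain gene otx2b differed by 0.15, the notochord gene tbxta by 0.21 and the muscle gene myod1 by -0.04. The hyaluronan-binding matrix gene hapln1a was the unlisted gene with the lowest p among those with higher values that did not pass. It gave 6.70, 6.73, 6.20 and 6.86 in 1 µM embryos, against 5.59, 5.95, 5.12 and 5.69 in DMSO embryos. The groups do not overlap, at a difference of 1.03 ± 0.22 (limma adjusted p = 0.116), and 3 other probe sets of hapln1a gave 1.06, 0.73 and 0.36. Non-overlap was a condition for naming this gene, so it is not separate evidence.

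Another 3 called probe sets have no single gene symbol in the annotation and are given by array identifier or by value. Dr.74.1.S1_at averaged 8.41 ± 0.18 in 1 µM and 9.89 ± 0.28 in DMSO (SD, n = 4 each) and fell by 1.48 (limma adjusted p = 0.00075). Dr.23688.1.A1_at averaged 6.02 ± 0.23 in 1 µM and 7.05 ± 0.17 in DMSO and fell by 1.03 (limma adjusted p = 0.00979). The third of these probe sets averaged 6.72 ± 0.12 in 1 µM and 7.50 ± 0.06 in DMSO and fell by 0.78 (limma adjusted p = 0.0207).

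The 13 called genes were then read at both doses, beside the same DMSO arrays, which makes the fold changes against DMSO dependent on each other. Log2 fold changes against DMSO were -1.79 at 1 µM and -2.05 at 10 µM for hoxb1a, and -1.49 and -1.78 for hoxa4a. They were -1.37 at 1 µM and -1.48 at 10 µM for rxrga, and -1.34 and -1.47 for neurog1. For meis3 they were -1.20 at 1 µM and -2.01 at 10 µM, and for wnt11 -1.08 and -1.68. The genes that rose gave 1.21 at 1 µM and 1.24 at 10 µM for tbx1, 1.35 and 0.88 for tbx15, and 0.80 and 0.46 for zic6, the 10 µM values of tbx15 and zic6 not passing (limma adjusted p of 0.154 and 0.36). At 10 µM, 47 of the tested probe sets (0.397%) were called against DMSO. Retinoic acid embryos, exposed for a shorter time and read against the same DMSO arrays, gave log2 fold changes of 3.91 for dhrs3a, 3.35 for hoxb1a, 4.74 for hoxa4a, 3.51 for rxrga and -2.68 for tbx1, and 0.76 for neurog1, -0.58 for tbx15 and -0.30 for zic6.

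**Figure D4:**
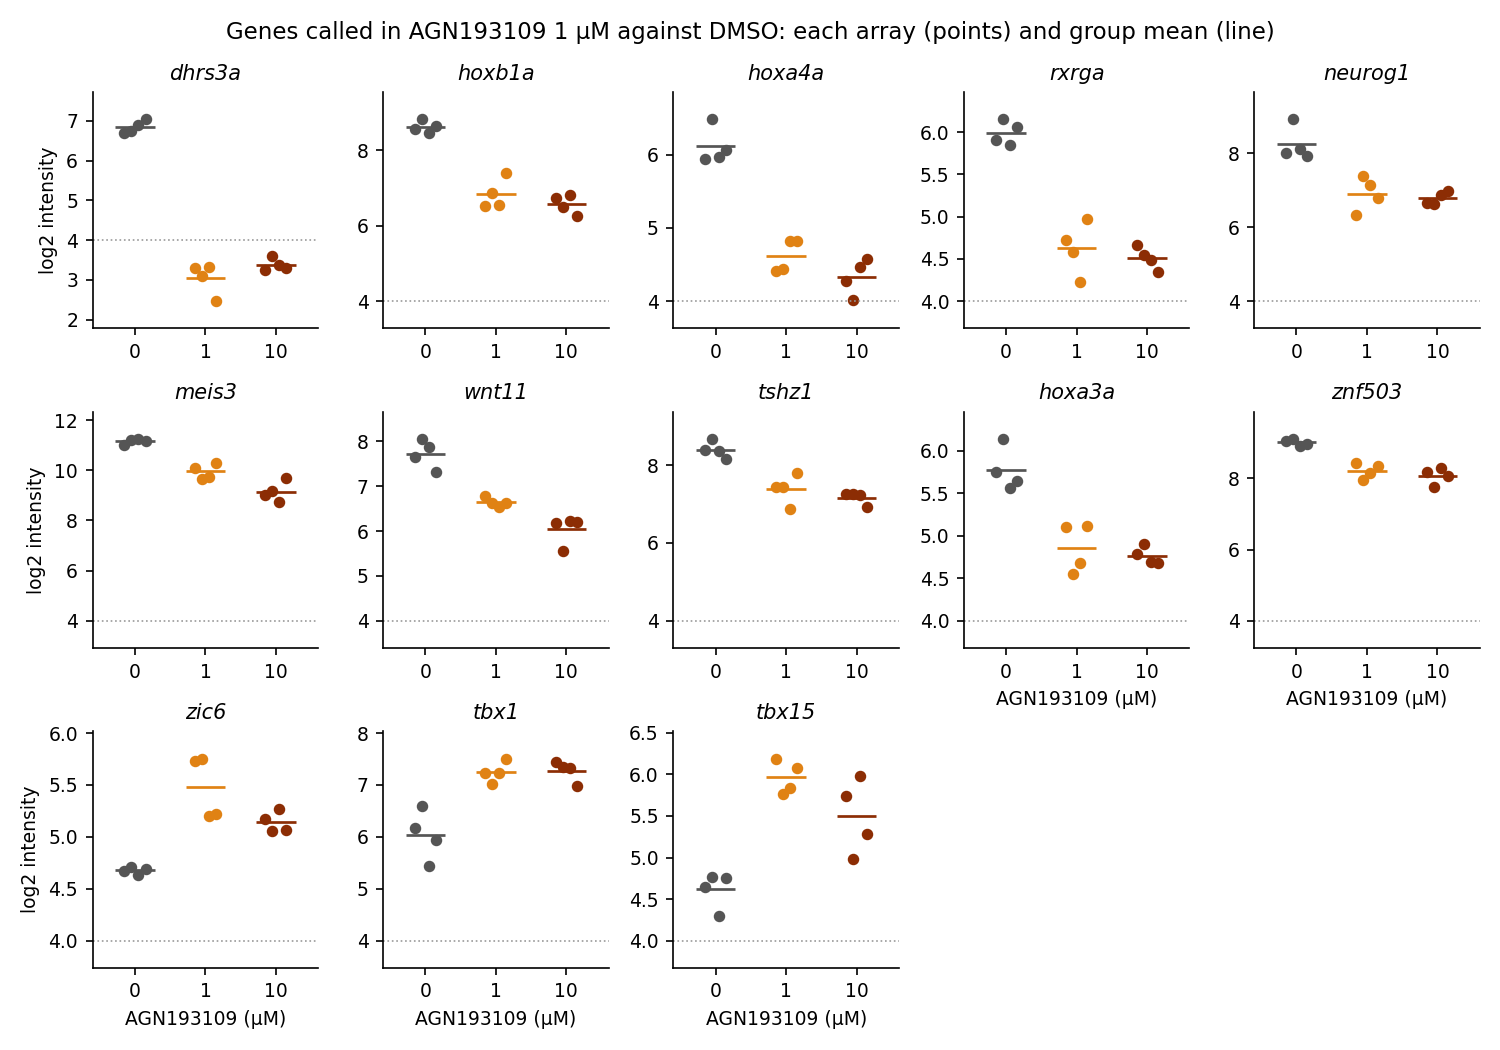
Log2 intensity (y axis) of the 13 called genes on each array (points) with group means (lines), by AGN193109 dose in µM (x axis, 0 being DMSO). Dotted lines mark log2 4; in each panel the 4 arrays at 1 µM lie on 1 side of the 4 DMSO arrays, and each panel has its own y scale.

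The doses themselves were compared by limma's test of 1 µM minus 10 µM, in which 1 of 11843 probe sets (0.00844%) passed and 0 named genes (0%) did. At an unadjusted p of 0.05, 1056 probe sets (8.92%) and 721 named genes (10.1%) passed. The probe set, Dr.608.1.A1_at, has no gene symbol in the annotation. Its log2 intensities were 6.56, 6.73, 6.06 and 7.13 at 1 µM, against 3.38, 3.93, 3.15 and 3.66 at 10 µM. The 1 µM arrays lay near the DMSO arrays (7.03, 7.38, 7.33 and 6.53), whereas all 4 arrays at 10 µM were under log2 4, so the probe set was at least 6.16-fold higher at 1 µM (limma adjusted p = 1.88e-06). Against DMSO, the 1 µM value of -0.45 did not pass (adjusted p = 0.745).

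Among the genes described, the dose difference is given with a 95% interval for each gene on its own. These intervals are not adjusted for the number of probe sets tested, so an interval that excludes 0 is not a call. For hoxb1a the difference of 1 µM minus 10 µM was 0.26 with a 95% interval of -0.11 to 0.63, and for rxrga it was 0.11 (-0.20 to 0.43). For tbx1 it was -0.03 (-0.45 to 0.40), and for neurog1 0.13 (-0.34 to 0.60). Of these genes the larger differences were in hoxd4a, at 1.01 (0.52 to 1.50), meis3, at 0.80 (0.41 to 1.19), meis2a, at 0.74 (0.28 to 1.20), and wnt11, at 0.60 (0.24 to 0.96). In wnt11 and meis2a all 1 µM arrays lay above all 10 µM arrays, whereas the arrays of hoxd4a and meis3 overlapped. None of these 4 genes passed after adjustment over all probe sets (limma adjusted p of 0.395 for hoxd4a and meis3, and 0.554 for wnt11 and meis2a). On the other side of 0 lay hoxa2b, at -0.58 (-0.92 to -0.23), with all 1 µM arrays under all 10 µM arrays (limma adjusted p = 0.554), and cyp26b1, at -0.40 (-0.88 to 0.08).

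Of the named genes higher at 1 µM than at 10 µM, the 5 with the lowest p lie outside the retinoid, hox and meis families. The first, p4ha1b, encodes a subunit of the prolyl hydroxylase that modifies collagen. Its log2 intensities were 11.44, 10.79, 11.10 and 11.04 at 1 µM, against 10.56, 10.12, 10.35 and 10.47 at 10 µM. The doses do not overlap, at a difference of 0.72 (0.44 to 0.99, limma adjusted p = 0.145), which passed without 1 µM replicate 2 (0.82, adjusted p = 0.0393). Replicate 2 was the 1 µM array nearest to the 10 µM arrays, so leaving it out enlarges the difference by construction. For ackr3b, whose product takes up the chemokine Cxcl12, the values were 9.17, 9.09, 9.01 and 8.97 at 1 µM, against 8.48, 8.32, 8.40 and 8.55 at 10 µM. The difference was 0.62 (0.38 to 0.86, limma adjusted p = 0.145), again without overlap. The guanine nucleotide exchange factor gene arhgef7a differed by 0.83 (0.46 to 1.19, limma adjusted p = 0.345), the histone demethylase gene kdm5ba by 0.71 (0.38 to 1.04) and edem1, a gene of protein degradation from the endoplasmic reticulum, by 0.58 (0.31 to 0.84). In all of these 5 genes the 1 µM arrays lay above the 10 µM arrays. First by p on the other side of 0 were yipf5 (-0.45), prmt6 (-0.55), angptl4 (-0.64), hoxa2b and ywhaba (-0.37), and 0 of the 5 passed in limma (adjusted p of 0.488 to 0.554). A second probe set of ywhaba hardly differed between the doses, at 0.04 for 1 µM and 0.12 for 10 µM against DMSO. A p that misses the threshold does not show that the doses act alike.

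**Figure D5:**
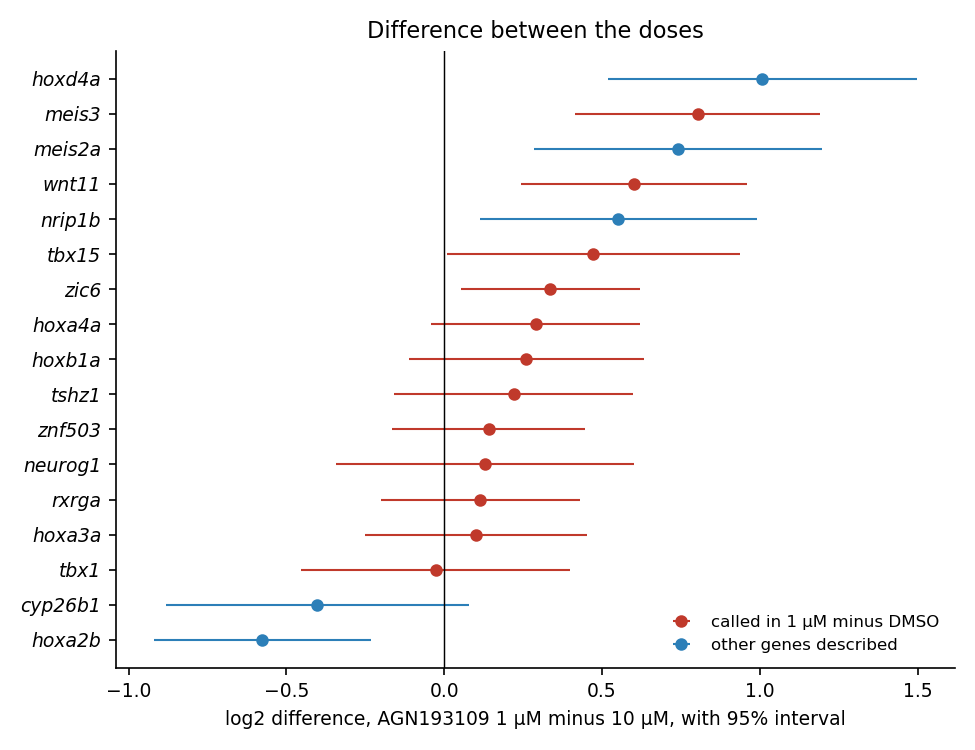
Log2 difference of 1 µM minus 10 µM (x axis, points) with its 95% interval (lines, n = 4 arrays a group), ordered by size. Red marks 12 genes called in 1 µM against DMSO and blue 5 further genes described. The intervals are not adjusted for the number of probe sets tested. dhrs3a is left out because it lay under log2 4 at both doses; hoxd4a is highest at 1.01 and hoxa2b lowest at -0.58, and none of the named genes passed after adjustment.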

How the data were processed

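Whole-embryo RNA was measured on Affymetrix zebrafish arrays, 16 in all, 4 a group, with groups and replicate numbers taken from the sample titles. The deposited intensities are linear, with 1 value for a probe set on each array. The authors used GCRMA to make them, as the submitters' processing notes say without a version. GCRMA corrects background from probe sequences, normalizes between arrays and sums up the probes of a probe set, and low values it leaves near its lowest intensity (2 here) understate differences of dim genes. Probe-level data and scan batches were not used here, and the number of arrays limits the precision.

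Log2 of the intensities was taken with no further scaling. The 115 control probe sets were left out, and 11843 probe sets above log2 4 on at least 4 arrays were tested. Group means were fitted to all 16 arrays with limma 3.58.1 (R 4.3.3; lmFit and eBayes, 12 residual and 4.45 prior degrees of freedom), and contrasts were tested two-sided with Benjamini-Hochberg adjustment over all tested probe sets. Of several probe sets of a gene, the brightest on average stands for it. Names came from the platform annotation, updated through the gene table of assembly GRCz12tu: 10802 probe sets had 1 symbol, 135 several and 4680 none, and 10718 were matched by Entrez number. Near-identical paralogues can share probes. A fold is a bound against log2 4 if the lower group stayed at or under that level throughout.

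Genes were named by a rule covering all called genes, up to 10 next by p in a direction without overlap of arrays, all genes called at 10 µM, up to 4 genes of each of 24 lists, the first genes by p in the dose difference and 32 genes named in every case; this gave 125 genes, not all of which are described. Genes mentioned beyond these are list members given by value. The comparison, the lists and the rule were chosen with earlier results of these data known. The alternatives tried were no filter, quantile normalization, centring, only the compared arrays, a replicate block, array weights, trend and robust options, leaving out arrays and an adjusted p of 0.1. The p-values rest on the spread within all groups of the fit, 10 µM and retinoic acid arrays included, and not only within the compared groups. The series design describes the 4 arrays a group as independent treatments, which was not tested here. A pattern shared between groups by replicate number was left out of the main fit.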

Additional observations from a re-analysis of the deposited data

Results flagged for a closer look

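Over the 80 genes described or considered in the 2 groups (160 groups of 4 arrays), 9 groups held 1 array whose gap to its nearest neighbour took up most of the group's range by Dixon's test at 95%. Chance gives about 1 in 20 such groups, and 9 of 160 is close to that share. In the 1 µM group these arrays were all replicate 1, which was high in olig3 (log2 intensity 8.84, others 7.91 to 8.05), zic5 (8.59, others 8.13 to 8.19) and tal1 (7.03, others 6.40 to 6.50). In the DMSO group, replicate 3 was low in rarga (7.46, others 7.99 to 8.09), sox2 (10.41, others 10.70 to 10.74) and cxcl12b (10.33, others 10.95 to 11.02), and high in spsb4a (10.32, others 9.93 to 9.98). DMSO replicate 2 was high in cyp26b1 (8.67, others 8.23 to 8.30) and arhgef7a (8.33, others 7.67 to 7.77). None of these 9 genes was called in 1 µM against DMSO.

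The probe set Dr.608.1.A1_at differed between the doses by limma's test of the difference, at a fitted log2 difference of 3.09 for 1 µM minus 10 µM with all 10 µM arrays under log2 4.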

How the results depend on the processing

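Under the alternatives, the 125 genes gave 2403 values, of which 49 lost and 16 gained a call. The sign changed in 41 values of 19 genes, 0 of them called with either sign, among them cyp26c1 (0.36, and down to -0.36), cdx4 (0.10, and down to -0.13), otx2b (0.15, and down to -0.06), myod1 and nr2f5. The 24 other tested probe sets of the 125 genes turned no call. Of the 13 called genes, 6 stayed called without any single array (dhrs3a, hoxb1a, hoxa4a, rxrga, meis3, wnt11), and 5, these without wnt11, under every alternative run. The 17 calls (3 higher, 14 lower) stayed at 17 with no filter, quantile normalization, centring, or the trend and robust options. They became 22 with array weights or an adjusted p of 0.1, and 7 (1 higher, 6 lower) with only the 8 arrays in the fit. Leaving out 1 array gave 9 to 17 calls, 0 to 6 higher and 9 to 14 lower. Without 1 µM arrays 1 and 4, and again without these and DMSO array 3 (chosen after seeing the data), 15 were called, 0 of them higher. The dose difference kept 1 call, except 2 (both higher) at an adjusted p of 0.1 and 1 to 3 with 1 array left out. With a replicate block, 18 probe sets were called, 16 of them among the 17, with nrip1b (adjusted p = 0.0135) and hey2 (0.0338) gained, and the dose difference kept 1 call. The deviations of same-numbered 1 µM and DMSO arrays from their group means correlated at -0.02, 0.14, 0.50 and 0.19. Differently numbered arrays lay between -0.62 and 0.54, so the replicate numbers were not taken as pairs. Every correlation between replicate 1 or 3 of 1 group and replicate 2 or 4 of the other was negative (-0.04 to -0.62). Whether the groups share such a pattern was not tested. Why calls changed was not tested. The number of arrays (4 a group) and values near background limit what could be called.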

Other observations

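Genes that varied most among the 4 arrays at 1 µM were not genes of the retinoid lists. The calcium-binding protein gene s100a1 had the largest SD (1.47), with log2 intensities of 7.37, 9.20, 9.84 and 6.75 at 1 µM, against 9.89, 8.26, 9.99 and 8.41 in DMSO. The chaperone gene hsp90aa1.2 gave 8.04, 10.51, 8.05 and 10.29 at 1 µM, against 7.61, 10.72, 8.55 and 9.32 in DMSO. In both groups its replicates 2 and 4 were high. The circadian clock genes nr1d2b and ciarta ran the other way. For nr1d2b the values were 7.04, 4.87, 6.84 and 5.77 at 1 µM, against 7.10, 4.38, 7.29 and 6.38 in DMSO. For ciarta they were 7.01, 5.10, 7.10 and 5.64 at 1 µM, against 7.60, 4.65, 7.44 and 6.68 in DMSO. None of the 4 genes passed in 1 µM against DMSO (limma adjusted p of 0.752 to 0.973).

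Of the 20 named genes with the largest SD at 1 µM, 9 had replicates 1 and 4 as the lower pair, s100a1 among them, 7 had replicates 2 and 4 as the lower pair and 4 had these as the higher pair. The 9 genes include 2 subunits of the respiratory chain. Log2 intensities of uqcrq, a subunit of the cytochrome bc1 complex, were 7.79, 10.04, 9.46 and 8.23 at 1 µM, against 9.63, 9.24, 9.31 and 9.73 in DMSO. Those of ndufb6, a subunit of NADH dehydrogenase, were 7.20, 9.31, 9.13 and 7.68 at 1 µM, against 9.03, 8.76, 9.02 and 9.05 in DMSO. Replicates 1 and 4 at 1 µM, the 1 µM arrays that stood furthest from the other groups, were the low ones in both genes, as in s100a1. The genes differed by -0.60 and -0.63 between the groups without passing (limma adjusted p of 0.769 and 0.759). Among the stress, low oxygen and clock genes the highest values were in pfkfb3 (1.19) and egln3 (1.05), which are known to respond to low oxygen, and neither passed. The lowest value of that list was in eno1a (-0.55), pfkfb4b gave -0.36, and 30 of the 56 genes lay below 0. These genes were picked after their values were seen, and the part of this scatter in the calls was not tested.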
